A study of Mus musculus with 8 samples.

Results

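Receptors for myeloid cytokines and growth factors were examined in granulocyte-macrophage progenitors (GMP), the bone marrow cells that give rise to granulocytes and monocytes. The set was a list of 10 genes, Csf1r, Csf2ra, Csf2rb, Csf2rb2, Csf3r, Il3ra, Kit, Flt3, Il6ra and Il6st, and its members were all probes that the platform annotation assigned to these symbols. The annotation used here listed 14 probes for 8 of the 10 genes, among 25697 probes on the array, and Csf1r and Kit were not analysed here. GMP from female C57BL/6 mice that lacked both SSB1 and SSB2, a pair of single-stranded DNA binding proteins (double knockout, DKO), were compared with GMP from wild-type mice, on 4 Illumina MouseRef-8 v2.0 arrays per group, which read 1 colour. The cells of both groups were sorted as lineage-low and c-Kit+ cells without Sca-1 that carried high CD34 and high CD16/32. The labels give no age, no way of deletion and no statement that each array held a separate animal, so p-values measure the spread between these samples, and part of it may be technical.

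The receptors work in 3 kinds of complex. The receptors for GM-CSF and IL-3 pair a ligand-specific alpha chain with a beta chain that carries the signal into the cell, and the mouse has a second beta chain gene, Csf2rb2, whose product serves IL-3. The IL-6 receptor likewise joins the binding chain Il6ra to the signal transducer Il6st, also called gp130, which several other cytokines share, whereas the G-CSF receptor Csf3r acts as a pair of identical chains. Csf1r, Kit and Flt3 are receptor tyrosine kinases for M-CSF or IL-34, stem cell factor and FLT3 ligand. In marrow, signals from these receptors are known to support the survival, division and maturation of granulocyte and monocyte precursors.

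Values are background-corrected and quantile-normalized log2 intensities. Alternatives named beside a result are uncorrected intensities, a background correction without negative controls (control-free normexp), the authors' own log2 table, and arrays aligned by their medians in place of quantiles (median alignment). That last scaling moved the median difference of all tested probes from -0.008 to -0.40. A probe counted as detected on an array when its detection p-value was under 0.05, and only probes with detection on 4 or more of the 8 arrays entered the test, among them 10 receptor probes of 7 genes. The lowest raw intensity among detected probes was 119 to 158.8 on the DKO arrays and 145.8 to 162.1 on the control arrays. The arrays detected 9774 to 11103 probes in DKO and 10740 to 11227 in control, and the mean raw intensity was lowest on DKO 1, at 380. Neither the number detected nor the mean intensity passed the exact two-sided permutation test between the groups (p = 0.114 for both, smallest possible p 0.0286, 4 arrays per group). The deleted gene Nabp2, which encodes SSB1, fell by 1.68 on the log2 scale at its brighter probe (SE 0.27, limma adjusted p = 0.00198) and differed by -0.41 at its other tested probe, which did not pass, and the Nabp1 probe, for SSB2, was not well above background on any array. Whether these probes lie in the deleted sequence is not known here. All 10 GMP and granule markers on the array, among them Mpo, Elane, Prtn3 and Ctsg, were detected.

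By probe signal, 3 receptor chains were lower in DKO and none was higher. Il6st fell 3.29-fold, a size that rests on DKO signals near background, with 1 DKO array below detection and a log2 difference of -1.72 against -0.65 in the authors' own table. The GM-CSF receptor alpha chain Csf2ra fell 1.60-fold. The IL-3 receptor alpha chain Il3ra fell 1.67-fold, a call that was lost in 6 of 17 alternatives. By its brightest tested probe, each of the remaining 4 tested genes, Csf2rb, Csf2rb2, Csf3r and Il6ra, missed the threshold of 0.05 for the adjusted p of limma. All 9 tested monocyte and dendritic cell markers were lower as well, although Cd74 entered the test through the control arrays alone. In such bulk samples fewer cells of a type and less RNA per cell cannot be told apart. The 3 falls among 7 tested genes stand beside 14.3% of all 7604 tested genes lower, 10.1% higher and 24.3% changed in either direction. By probe, 3 of the 10 tested receptor probes fell, against 12.4% of all tested probes lower, 10.4% higher and 22.7% either way. Over all probes 1125 were higher and 1344 lower, a split that became 148 and 2335 after median alignment. The receptor genes had a median log2 difference of -0.68, beside -0.03 over all tested genes. That median was -0.29 on uncorrected intensities, -0.26 in the authors' own table, -0.28 with no filter on dim probes, -0.45 with control-free normexp and -1.08 after median alignment. These counts cover only the members that passed the detection filter. With 7 genes they describe the list, and its difference from other genes was not tested.

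**Figure D1:**
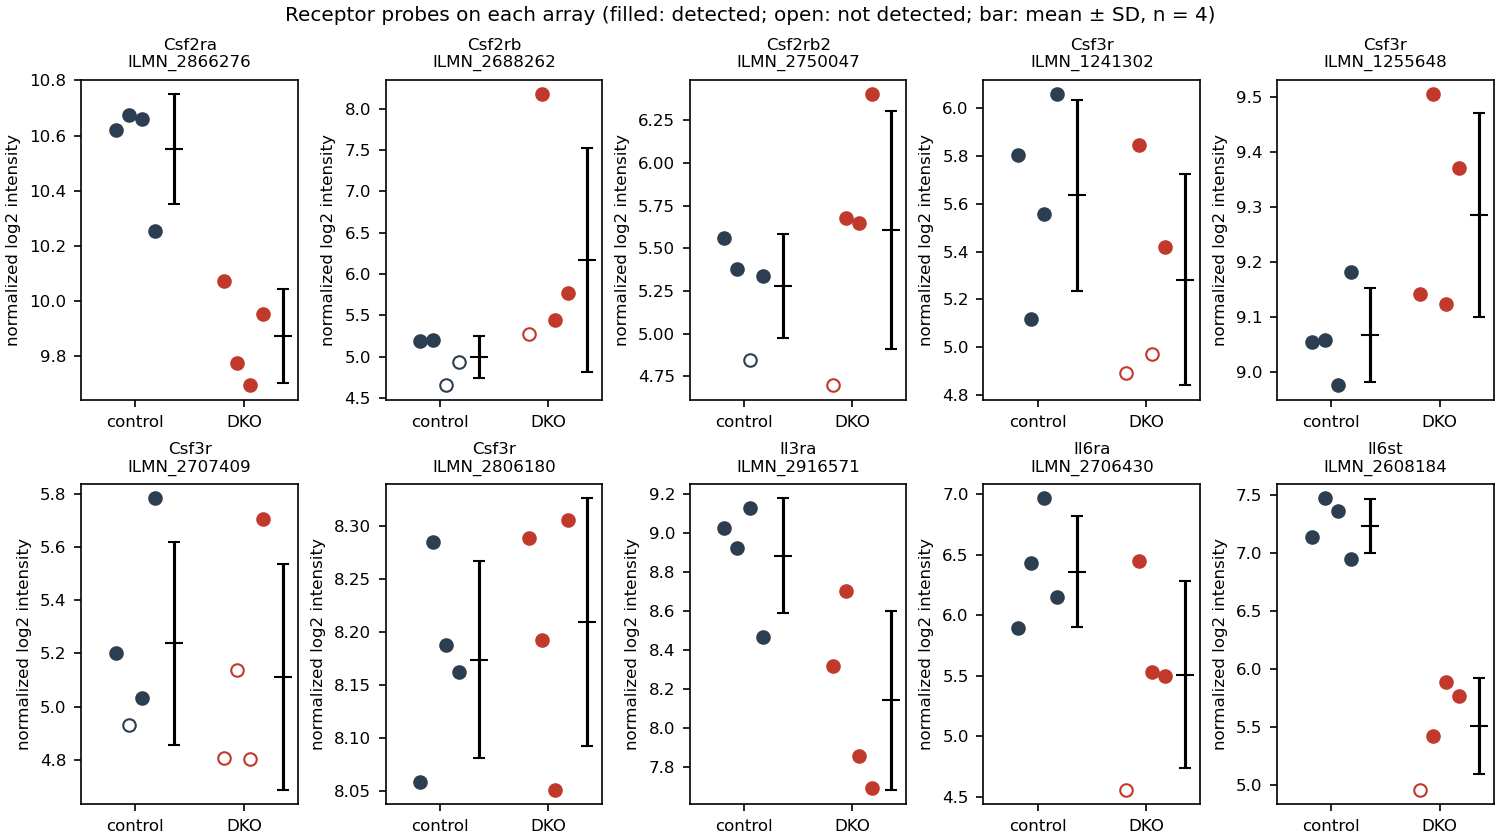
Normalized log2 intensity of the 10 tested receptor probes, a panel each with its own scale, for 4 control and 4 DKO arrays; filled circles are arrays with detection, open circles arrays without, and bars are the mean and SD (n = 4). The groups are apart for Il6st, Csf2ra and the Csf2rb probe, and DKO 2 stands at 8.17 for Csf2rb while the other 3 DKO arrays lie between 5.28 and 5.76.

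Il6st, the transducer shared by IL-6, oncostatin M, LIF and related cytokines, was measured by probe ILMN_2608184. It read 4.96, 5.42, 5.89 and 5.77 on DKO 1 to 4 and 7.13, 7.47, 7.36 and 6.95 on control 1 to 4. Every DKO array lay below every control array, with 1.06 between the highest DKO and the lowest control value. The log2 difference was -1.72 (SE 0.21, limma adjusted p = 0.000383), and the DKO mean was 5.51 ± 0.42 (SD, n = 4) beside 7.23 ± 0.23 (SD, n = 4) for control. The raw intensity was 114.9 to 170.1 in DKO, where 3 of 4 arrays detected the probe, and 246.1 to 384.4 in control, where all 4 did. The DKO readings were thus close to background, and the size of the fall depended on how background was treated. It was -0.70 on uncorrected intensities, -0.65 in the authors' own table and -1.02 with control-free normexp, past the threshold in each.

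Il6ra, the ligand-binding chain that works with Il6st, was measured by probe ILMN_2706430. It read 4.56, 6.45, 5.53 and 5.50 on the DKO arrays and 5.90, 6.43, 6.96 and 6.15 on the control arrays. DKO 2 lay within the control range, and the other 3 DKO arrays lay below it. The log2 difference of -0.85 (SE 0.35, 95% interval -1.63 to -0.07) did not pass the threshold (limma adjusted p = 0.106). Without DKO 2 it was -1.16 and passed (limma adjusted p = 0.0211), and it was -0.53 without DKO 1 (adjusted p = 0.205), the array on which the probe was not detected. It also passed after median alignment (-1.08, limma adjusted p = 0.0134) and with array weights (-0.78, limma adjusted p = 0.0459), and its difference was -0.29 on uncorrected intensities, -0.26 in the authors' own table and -0.45 with control-free normexp.

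Csf2ra, the alpha chain that binds GM-CSF, was measured by probe ILMN_2866276 and detected on all 8 arrays. It read 10.07, 9.77, 9.69 and 9.95 in DKO and 10.62, 10.67, 10.66 and 10.25 in control. The groups did not overlap, although control 4 lay nearer to DKO 1 than to any other control. The DKO mean was 9.87 ± 0.17 (SD, n = 4) beside 10.55 ± 0.20 (SD, n = 4) for control, a log2 difference of -0.68 (SE 0.15, limma adjusted p = 0.00814). The fall passed in each alternative run and without any single array, between -0.61 in the authors' own table and -1.13 after median alignment.

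Il3ra, the alpha chain that binds IL-3, was measured by probe ILMN_2916571 and also detected on all 8 arrays. It read 8.32, 8.70, 7.85 and 7.69 in DKO and 9.02, 8.92, 9.13 and 8.46 in control. DKO 2 lay above control 4, so the groups overlapped by 1 array each. The DKO mean was 8.14 ± 0.46 (SD, n = 4) beside 8.88 ± 0.29 (SD, n = 4) for control. The log2 difference was -0.74 (SE 0.23, limma adjusted p = 0.0407), and its call was near the threshold. It was lost without DKO 3 (limma adjusted p = 0.0902), DKO 4 (0.0987), control 1 (0.101), control 2 (0.0944) or control 3 (0.105), and with no filter on dim probes (0.0979). The difference stayed negative in each of these, and it was -1.27 after median alignment.

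No probe of the signalling beta chains passed the test. Csf2rb, the beta chain shared by the receptors for GM-CSF, IL-3 and IL-5, had 1 tested probe of 3, ILMN_2688262, which read 5.28, 8.17, 5.44 and 5.76 in DKO and 5.18, 5.20, 4.65 and 4.94 in control. The DKO values lay above the control values, but DKO 2 stood far from the other 3. The log2 difference was 1.17 (SE 0.53, 95% interval 0.00 to 2.34) and did not pass (limma adjusted p = 0.133). Without DKO 2 it was 0.50 (limma adjusted p = 0.0739). It was 0.46 on uncorrected intensities, 0.68 with control-free normexp and 0.43 in the authors' own table, and did not pass in these. The other Csf2rb probes, ILMN_1236070 and ILMN_1253312, read 4.88 and 5.06 on DKO 2 and were each detected on 1 of the 8 arrays, so the high value of DKO 2 was seen at 1 of the 3 probes.

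Csf2rb2, the IL-3-specific beta chain and a close paralog of Csf2rb, read 4.70, 5.68, 5.65 and 6.40 in DKO and 5.56, 5.38, 4.84 and 5.34 in control at probe ILMN_2750047. The DKO arrays lay on both sides of the control range. The log2 difference was 0.33 (SE 0.31, 95% interval -0.35 to 1.0, limma adjusted p = 0.471). It was 0.63 without DKO 1, 0.18 without control 3 and 0.06 without DKO 4, and 0.11 on uncorrected intensities, 0.16 with control-free normexp and 0.09 in the authors' own table. None of these passed. The Csf2rb and Csf2rb2 values are uncertain as gene-specific levels, because the genes are near copies and probe sequences were not used here. Each gene's tested probe was detected on 3 DKO arrays, and on 2 control arrays for Csf2rb and 3 for Csf2rb2.

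Csf3r, the G-CSF receptor and the only one of these chains with several bright probes, had 5 probes, 4 of them tested. The brightest, ILMN_1255648, read 9.14, 9.51, 9.12 and 9.37 in DKO and 9.06, 9.06, 8.98 and 9.18 in control. DKO 1 and DKO 3 lay within the control range and the other 2 above it, and the log2 difference of 0.22 (SE 0.13, 95% interval -0.07 to 0.51) did not pass (limma adjusted p = 0.259). The second bright probe, ILMN_2806180, differed by 0.04 (SE 0.12, 95% interval -0.23 to 0.30, limma adjusted p = 0.856). Its arrays read 8.05 to 8.31 in DKO and 8.06 to 8.29 in control, nearly the same range. The dimmer probes ILMN_1241302 and ILMN_2707409 differed by -0.35 and -0.12 and did not pass, and ILMN_2746501 was not detected on any array. The 4 tested probes thus did not share a sign, and after median alignment the bright probes were at -0.30 and -0.50 beside the -0.40 of all tested probes.

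Flt3, the receptor of early progenitors and dendritic cell precursors, had 1 probe, ILMN_2761370, which was not well above background on any of the 8 arrays. Its normalized values were 4.55 to 5.04 in DKO and 4.35 to 4.80 in control. A level of Flt3 at or under background could not be compared between the groups.

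**Figure D2:**
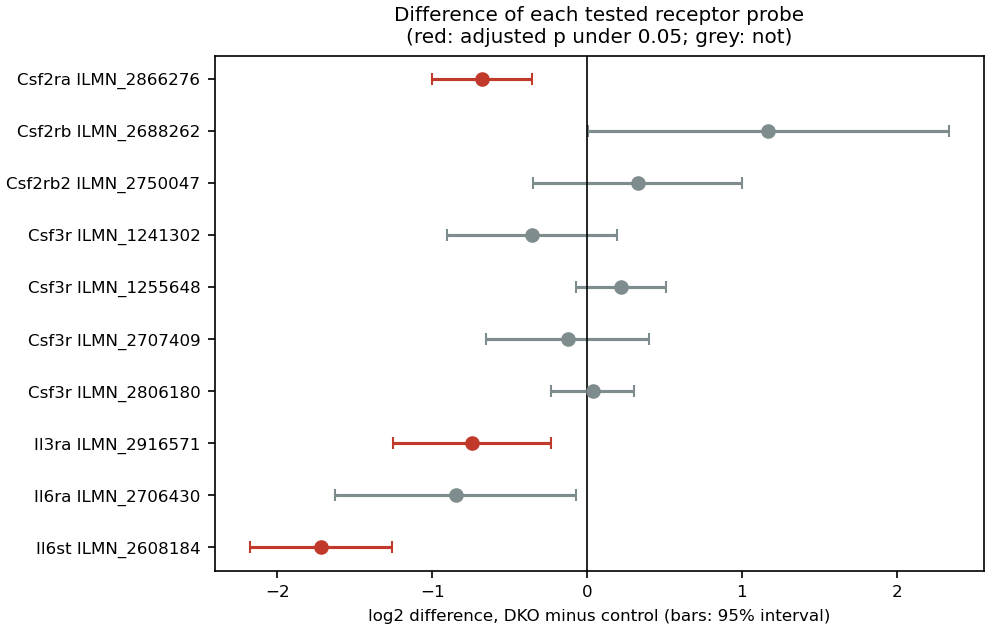
Log2 difference, DKO minus control, of each tested receptor probe with its 95% interval from the limma fit (4 arrays per group); red marks an adjusted p under 0.05. Il6st at -1.72, Il3ra at -0.74 and Csf2ra at -0.68 are red, and the Csf3r probes lie around 0.

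The promoters of the 3 chains that fell, and of Csf3r as a bright receptor whose difference did not pass, are shown to place these genes side by side. The RefSeq table used here (GRCm38.p6) held 250 bases before to 50 after the gene start for 8 of the 10 members. Motifs were searched on both strands as plain letters, namely GAGGAA (core of sites of the myeloid factor PU.1), GGAANNGAA (PU.1 with an interferon regulatory factor), TTGCNNAA (C/EBP), TGTGGT (RUNX) and TTCNNNGAA (STAT). The first 2 can overlap, and capitals mark the matches. Each window is written 5′ to 3′ on the gene's strand: Csf2ra at chr19:61228369-61228668 (minus), Il3ra at chr14:14346245-14346544 (plus), Il6st at chr13:112463820-112464119 (plus) and Csf3r at chr4:126024409-126024708 (plus).
Csf2ra: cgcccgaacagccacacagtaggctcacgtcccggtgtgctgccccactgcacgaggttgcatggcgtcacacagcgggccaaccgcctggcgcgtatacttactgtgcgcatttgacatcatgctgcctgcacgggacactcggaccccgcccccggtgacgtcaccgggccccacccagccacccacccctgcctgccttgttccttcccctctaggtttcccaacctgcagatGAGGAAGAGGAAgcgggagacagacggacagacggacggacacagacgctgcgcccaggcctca
Il3ra: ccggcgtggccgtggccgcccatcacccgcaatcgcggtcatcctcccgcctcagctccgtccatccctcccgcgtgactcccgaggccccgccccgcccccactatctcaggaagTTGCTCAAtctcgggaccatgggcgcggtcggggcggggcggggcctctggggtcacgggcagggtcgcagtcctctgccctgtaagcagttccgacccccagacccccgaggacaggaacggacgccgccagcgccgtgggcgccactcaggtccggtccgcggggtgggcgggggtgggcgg
Il6st: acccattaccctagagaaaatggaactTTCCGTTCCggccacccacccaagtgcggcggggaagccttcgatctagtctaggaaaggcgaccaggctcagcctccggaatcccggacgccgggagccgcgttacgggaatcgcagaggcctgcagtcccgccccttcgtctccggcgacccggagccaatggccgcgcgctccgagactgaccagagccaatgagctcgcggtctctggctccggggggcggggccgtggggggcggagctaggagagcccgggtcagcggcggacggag
Csf3r: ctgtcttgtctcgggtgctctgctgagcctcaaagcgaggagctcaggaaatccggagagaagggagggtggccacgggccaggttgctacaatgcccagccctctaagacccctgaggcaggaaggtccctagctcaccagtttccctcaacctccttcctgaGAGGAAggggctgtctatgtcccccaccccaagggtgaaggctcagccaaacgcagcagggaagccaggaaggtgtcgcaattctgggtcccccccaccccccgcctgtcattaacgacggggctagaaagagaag

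Csf2ra held GAGGAA as a tandem pair, from -14 to -9 and from -8 to -3 relative to the gene start, and Csf3r held it from -86 to -81. The letters GAGGAA occur in 28.3% of all 32851 promoter windows. Il3ra held a match to TTGCNNAA from -134 to -127, as do 10.8% of windows somewhere, and Il6st a match to GGAANNGAA on the opposite strand from -223 to -215, as do 8.24%. TGTGGT, in 16.8% of windows, and TTCNNNGAA, in 8.3%, were in none of the 4. No motif of the 5 was common to the 3 promoters of the genes that fell.

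Genes around the receptors were described from 5 lists. Their counts, and those of the marker lists, stand beside 14.3% of all 7604 tested genes lower and 10.1% higher. Called in either direction were 33.3% of tested ligands, 20% of other receptors and 14.3% of proximal signalling genes. The share was 38.5% for induced targets and 12.5% for transcription factors, beside 24.3% of all tested genes. No list was tested against other genes. Among 12 ligand genes, 3 were tested, 0 rose and 1 fell. Osm, which encodes oncostatin M, a cytokine that signals through Il6st, read 6.89 to 7.45 in DKO and 7.54 to 8.30 in control, a log2 difference of -0.62 (SE 0.19, limma adjusted p = 0.0393), or -0.38 on uncorrected intensities, -0.37 in the authors' own table and -1.14 after median alignment. Its call was lost without DKO 1 (limma adjusted p = 0.0755), DKO 2 (0.0514), DKO 3 (0.066), control 1 (0.103) or control 4 (0.0879), with array weights (0.0735) and with no filter on dim probes (0.08). Csf1, which encodes M-CSF, differed by 0.66 (limma adjusted p = 0.0876) and Csf3, which encodes G-CSF, by 0.30 (limma adjusted p = 0.46). The other 9 ligand genes, among them Il6, Il3, Csf2 and Kitl, were not tested, since fewer than 4 of the 8 arrays detected them.

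Of 18 other receptors of the same structural families, 13 had a probe and 5 were tested. Epor, the erythropoietin receptor, was detected on 0 of 4 DKO and 4 of 4 control arrays, and entered the test through the control arrays alone. The groups overlapped, with DKO 1 at 5.03 and control 1 at 5.02. The lowest detected normalized value was 5.40 on DKO 1 and 4.99 on control 1, so detection was not equally strict on these arrays. Epor was at least 1.06-fold lower on the background-corrected scale (log2 difference of the fit -0.62, limma adjusted p = 0.0235). That call was lost without DKO 3 (limma adjusted p = 0.0524), DKO 4 (0.057), control 2 (0.0768) or control 3 (0.0536), on uncorrected intensities (-0.18, 0.0968) and in the authors' own table (-0.17, 0.101). Osmr, which pairs with Il6st to bind oncostatin M, differed by -0.11 (SE 0.15), Il27ra, which pairs with Il6st to bind IL-27, by -0.08 (SE 0.26), the PDGF receptor gene Pdgfrb by -0.31 (SE 0.24), and Il2rb, a chain of the IL-2 receptor, by -0.0011 (SE 0.27), and none of these passed.

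Of 28 genes for kinases, adaptors, phosphatases and STAT factors next to the receptors, 20 had a probe, 14 were tested, 0 rose and 2 fell, and their median log2 difference was -0.18. Tyk2, a Janus kinase used by Il6st and by interferon receptors, read 9.31 to 9.71 in DKO and 9.95 to 10.16 in control by its brightest probe, with no overlap (log2 difference -0.56, SE 0.13, limma adjusted p = 0.0125). It differed by -1.05 after median alignment, and its 2 dimmer probes differed by -0.13 and -0.25 and did not pass. Fes, a tyrosine kinase of myeloid cells, differed by -0.48 (limma adjusted p = 0.0454), a call lost when any 1 of the arrays other than DKO 2 was left out (adjusted p from 0.0519 to 0.115) and with no filter on dim probes (0.0632). It held without DKO 2 (limma adjusted p = 0.032). After median alignment it differed by -0.82. The phosphatase gene Ptpn6 differed by -0.34 and Nras by -0.26, neither past the threshold. Jak2, the kinase bound by the beta chain, differed by -0.06 (SE 0.16), and Stat3, the factor activated through Il6st and Csf3r, by 0.26 (SE 0.24), both by their brightest probes.

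Among genes known to be induced by such signals, some rose and others did not. Of 18 targets and feedback regulators, 13 were tested, 4 rose and 1 fell, and their median log2 difference was 0.14, or -0.14 after median alignment. Socs3, the feedback inhibitor that binds Il6st and Csf3r, read 6.22, 5.49, 6.22 and 6.35 in DKO and 4.66, 4.56, 4.65 and 5.003 in control. Socs3 was detected on all 4 DKO arrays and on 0 control arrays, and thus entered the test through the DKO arrays alone, the group where it was higher. It passed the threshold (limma adjusted p = 0.00107). On the background-corrected scale used here it was at least 2.07-fold higher, a bound that does not hold under other background treatments. The log2 difference of the fit was 1.35, and it was 0.41 on uncorrected intensities, 0.67 with control-free normexp and 0.37 in the authors' own table, past the threshold in each. Pim1, a survival kinase induced by STAT factors, read 6.53, 7.29, 6.55 and 7.05 in DKO and 5.30, 5.56, 5.08 and 5.72 in control. Its brightest probe rose 2.71-fold by limma (adjusted p = 0.00101, log2 difference 1.44, SE 0.21), with a difference of 0.55 on uncorrected intensities, 0.81 with control-free normexp and 0.50 in the authors' own table, and its other probe differed by 0.40 and did not pass.

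Id1, an inhibitor of helix-loop-helix factors, rose 2.63-fold (limma adjusted p = 0.00199), with 8.88 to 10.06 in DKO, 7.90 to 8.13 in control and no overlap. Its log2 difference was 1.40, or 0.89 after median alignment. The cyclin gene Ccnd3 rose 1.40-fold (log2 difference 0.49, limma adjusted p = 0.0329) at its brightest probe, and its 2 dimmer probes differed by 0.48, which passed, and 0.25, which did not. The first call was lost without DKO 2 (limma adjusted p = 0.067), DKO 4 (0.0583), control 1 (0.0978), control 2 (0.067) or control 4 (0.0779), and after median alignment (0.20, 0.617). Dusp6, a phosphatase that is induced by and shuts off ERK signalling, read 8.54, 9.16, 9.73 and 8.23 in DKO and 10.50, 10.04, 9.72 and 10.08 in control. DKO 3 lay just above control 3 and the other DKO arrays below all controls. It was 2.25-fold lower by the limma fit (adjusted p = 0.018, log2 difference -1.17, SE 0.30), a call lost without control 1 (adjusted p = 0.056) and with no filter on dim probes (0.056), and its dimmer tested probe also fell by 1.17 on the log2 scale (limma adjusted p = 0.0259). Cish, a STAT5 target of the beta chain receptors, differed by -0.13 (SE 0.22) and did not pass.

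**Figure D3:**
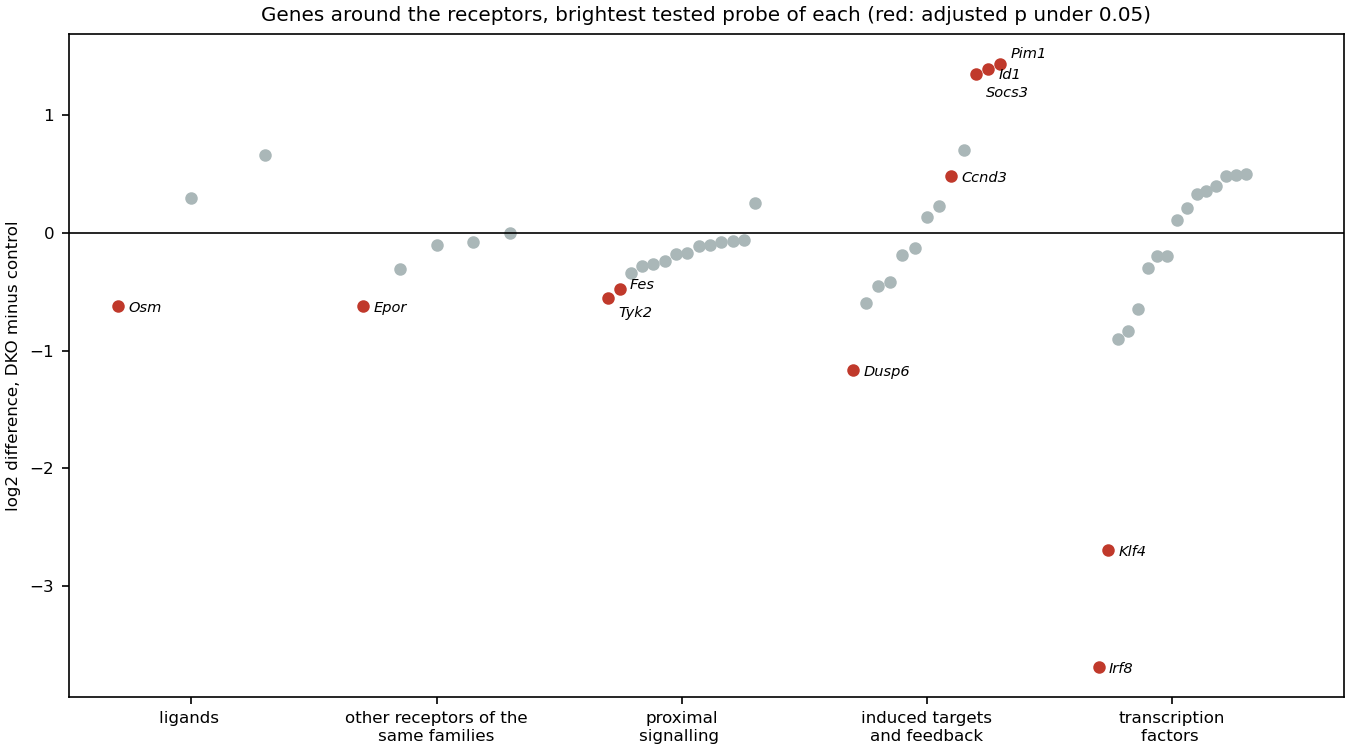
Log2 difference, DKO minus control, of each gene of 5 lists around the receptors, by its brightest tested probe (points; 4 arrays per group); red and a name mark an adjusted p under 0.05. The red points among the induced targets lie on both sides of 0, and Irf8 at -3.69 and Klf4 at -2.70 lie far below the other transcription factors.

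Of 18 transcription factors known to act at receptor genes of this kind, 16 were tested, 0 rose and 2 fell, Irf8 and Klf4. Both drive monocyte development and also stand in the monocyte marker list. Irf8 differed by -3.69 (limma adjusted p = 0.000112) and Klf4 by -2.70 (limma adjusted p = 0.000112). The difference of Klf4, detected on 1 DKO array and 4 control arrays, was -1.09 on uncorrected intensities, -1.59 with control-free normexp and -1.01 in the authors' own table. Spi1, which encodes PU.1, differed by 0.49 (SE 0.25), Cebpb by 0.50 (limma adjusted p = 0.089), Ets1 by 0.49 (limma adjusted p = 0.0852) and Runx1 by -0.65 (SE 0.32), and none of these passed. Cebpe did not pass at its brightest probe (log2 difference 0.33) and was higher at its other probe (0.61, limma adjusted p = 0.0452).

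Marker lists of other blood cells were read beside the receptors, although the gate, lineage-low and c-Kit+ without Sca-1, is meant to remove mature cells of most of these kinds and Sca-1+ stem cells. All 9 tested monocyte and dendritic markers fell, and their summed normalized intensity was 6359 to 8184 in DKO and 20350 to 30746 in control. Among them, Cd74 was detected on 0 DKO and 4 control arrays and entered the test through the control arrays alone. Klf4 and Ctss were detected on 1 DKO array each. Ccr2 and Itgax were detected on no array. Of the 8 tested late neutrophil markers 4 rose, Lcn2, Cd177, Stfa1 and S100a9, and 0 fell. The others, S100a8, Camp, Ltf and Ngp, differed by -0.04, -0.40, -0.38 and 0.98 and did not pass. Stfa1 was detected on 4 DKO and 0 control arrays and entered the test through the DKO arrays alone. Sums, led by the bright S100a8 and S100a9, were 41718 to 55220 in DKO and 35658 to 38852 in control. Mmp8 and Stfa2 were detected on no array. Of the 7 tested basophil and mast cell markers 0 rose and 1 fell, Hdc (log2 difference -1.35). The other 6 did not pass by their brightest probes, with differences from -1.17 (Cpa3) to 0.24 (Fcer1a). Cpa3 was lower at another probe (-1.31, limma adjusted p = 0.0406). Sums were 4360 to 11673 in DKO and 13342 to 15334 in control, and Tpsb2 was detected on no array. Sums add unlogged intensities, so the brightest marker weighs most, here Hdc and in the lymphoid list Nkg7. Neither of the 2 tested eosinophil markers passed (sums 4949 to 11944 in DKO, 7378 to 17570 in control, with Il5ra and Ccr3 on no array). The 2 tested stem cell markers did not pass either (in the same order, sums 162 to 414 and 288 to 479, with Hlf and Slamf1 on no array). Of the 7 tested erythroid and megakaryocyte markers 1 fell, Epor (sums 751 to 2117 and 1418 to 2155, with Gata1 on no array). Both tested lymphoid markers, Nkg7 and Rag1, were lower (sums 8266 to 11528 and 14386 to 16557, with Cd3e and Dntt on no array). Nkg7 was detected on all arrays, with its mean at percentile 99.35 of all probes, and whether it reads lymphoid cells here was not tested. Rag1 was detected on 0 DKO and 4 control arrays and entered the test through the control arrays alone. It was at least 1.02-fold lower, but its control values, 5.07 to 5.38, lay under the lowest detected value of DKO 1, 5.40. Sums of the 10 GMP markers were 121621 to 130658 in DKO and 108221 to 122365 in control, and Cd34, which marks the gate, fell by 1.42 on the log2 scale. The sums used the brightest Mpo probe, which differed by 0.19 and did not pass. Mpo probes ILMN_2925094 and ILMN_2719256 were lower (-0.63 and -1.04, limma adjusted p = 0.0183 and 0.0163). A dimmer Fcgr2b probe, ILMN_3102376, was higher (0.63, limma adjusted p = 0.0046). The part of these markers in the falls of Il6st, Csf2ra and Il3ra was not tested.

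The groups did not overlap at 3 of the 10 tested receptor probes, those of Il6st, Csf2ra and Csf2rb, beside 27.6% of all tested probes. The spread among the 4 arrays of a group differed between members. The SD in DKO was 0.12 to 0.18 for Csf2ra and the 2 bright Csf3r probes, and 0.42 to 1.36 for the other 7 tested probes, while in control it was 0.08 to 0.46 over all 10. The SE of the difference was 0.21 to 0.53 for the dim probes of Il6st, Il6ra, Csf2rb and Csf2rb2 and 0.12 to 0.15 for Csf2ra and the bright Csf3r probes, with 4 arrays per group for each.

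**Figure D4:**
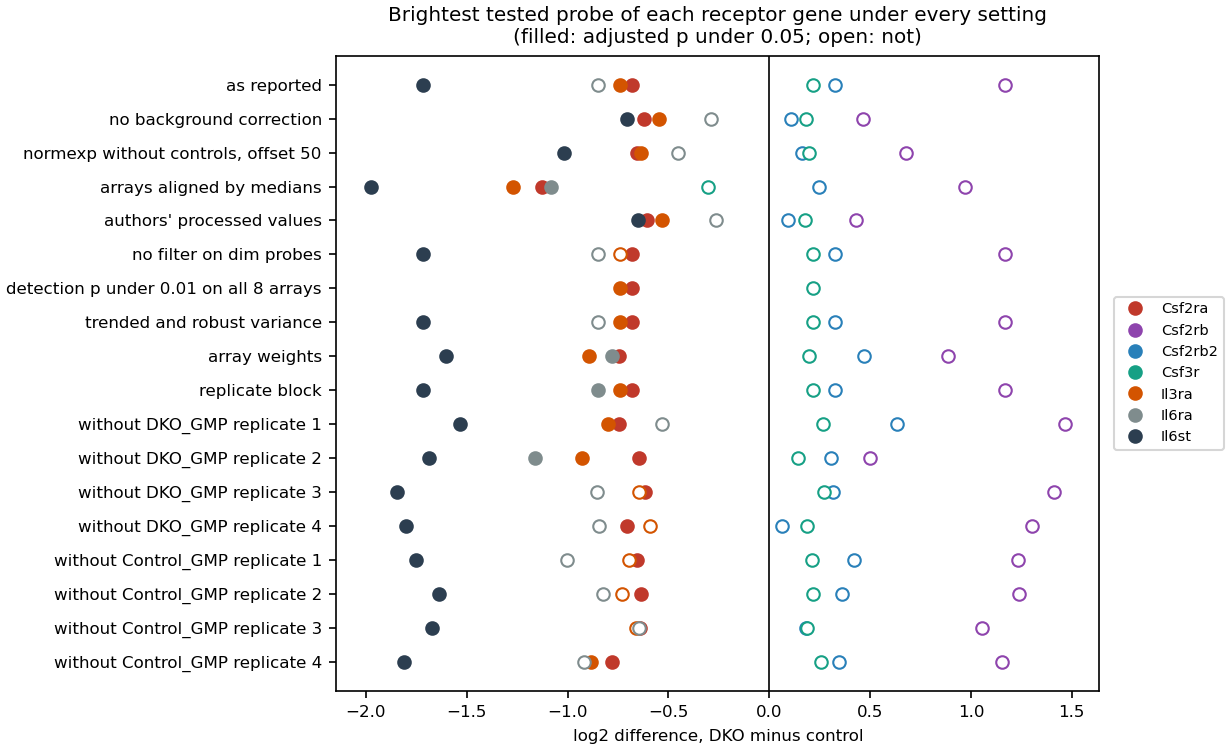
Log2 difference, DKO minus control, of the brightest tested probe of each receptor gene (colours) under each processing alternative and with each array left out; filled circles have an adjusted p under 0.05. Il6st and Csf2ra are filled wherever they were tested, from -1.97 to -0.65 and from -1.13 to -0.61, Il3ra is filled or open by setting, and Csf3r changes side after median alignment.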

How the data were processed

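Total RNA was extracted with the RNeasy kit, DNase-treated and labelled as biotinylated cRNA with the TotalPrep kit, per the labels' protocols. The submitters' processing notes name GenomeStudio, with no version. The deposited table holds, per the file headers, an average signal intensity and a detection p-value for each of 25697 probes on each array, and the authors' processed log2 values come from a second deposited table whose centring is unknown. Of the probes, 23978 had 1 gene symbol and 1719 had none.

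Intensities were background-corrected and quantile-normalized by the neqc function (limma 3.58.1, R 4.3.3, offset 16), which estimated the negative controls from detection p-values. Probes with detection p under 0.05 on at least 4 of 8 arrays (10856 probes, 7604 genes) were fitted with lmFit and eBayes, without covariates, and p-values were adjusted by Benjamini-Hochberg over all of them, with a threshold of 0.05. The fit was tested on simulated data. A gene was described by its tested probe with the highest mean. Precision is limited by the number of arrays, 4 per group.

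The bound for a group without detection used the lowest detected normalized signal of each array, so it depends on the background correction. All members are named, and up to 4 genes with the smallest p from each list around the receptors. Called genes behind a count of 5 or fewer in the fit without alternatives are also named. Jak2, Stat3, Cish, Spi1, Runx1, Cebpe and some marker genes were added after their values were seen. The members and lists were chosen with earlier results of these data known. Alternatives covered background correction, scaling, the authors' values, filters, variance model, array weights, a replicate block and leaving out each array.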

Additional observations from a re-analysis of the deposited data

Results flagged for a closer look

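In 28 groups of 4 arrays looked at for the receptor probes, 4 held an array far from the other 3 by Dixon's test, which chance flags in about 1 in 20 groups. DKO 2 read 8.17 for Csf2rb at ILMN_2688262, with a gap of 0.833 of the group's range. Control 4 read 10.3 for Csf2ra at ILMN_2866276, lowest of its group, with a gap of 0.87 of the range. Control 4 also read 4.95 for Csf3r at ILMN_2746501 (gap 0.845) and DKO 1 read 5.04 for Flt3 at ILMN_2761370 (gap 0.953), probes that no array detected. The untested Csf2rb probe ILMN_1236070 was detected on 1 DKO array, DKO 4, and on 0 control arrays.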

How the results depend on the processing

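The count of receptor genes lower in DKO was 3, and 2 to 4 over the arrays left out. It was 4 after median alignment, with array weights and with the replicate block, and 2 with no filter on dim probes and with the stricter filter, which left 3 receptor genes to test. No receptor gene was higher in any alternative run. Csf2ra kept its call in all 17 alternatives and Il6st in the 16 that tested it, while Il3ra kept it in 11 of 17. Csf3r changed sign at 3 probes, never past the threshold: ILMN_1255648 after median alignment (-0.30), ILMN_2806180 after median alignment (-0.50), array weights (-0.019) and with single arrays left out (-0.0025 to 0.088, lowest without control 1), and ILMN_2707409 with single arrays left out (-0.32 to 0.056, highest without control 4), and the cause was not tested.

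Over all probes, 1125 were higher and 1344 lower, against 148 and 2335 after median alignment, 742 and 954 without control 1, and 665 and 864 without control 2. The median of the receptor genes, -0.68, was -0.29 on uncorrected intensities, -0.45 with control-free normexp, -0.26 in the authors' own table, -0.28 with no filter and -1.08 after median alignment. Among the lists, induced targets lower numbered 4 after median alignment and 0 with no filter or without control 1, and proximal genes lower numbered 4 on uncorrected intensities, in the authors' own table and without DKO 2. Ligands higher numbered 1 with array weights and without DKO 2. Transcription factors lower numbered 6 after median alignment and 4 without DKO 3, against 2, and 1 was higher with the trended variance, with the replicate block and without DKO 1 or DKO 3.

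The labels do not say whether replicate numbers pair the samples, and a check on the data was split. The correlation of same-numbered arrays' deviations was 0.192, 0.0259, -0.111 and 0.195, over 0.1 for 2 of 4 numbers. Replicates 1 and 4 correlated best with their own number, and replicates 2 and 3 better with another number. The check thus left pairing undecided. With the replicate block, 1102 probes were higher and 1318 lower, and Il6ra passed (-0.85, limma adjusted p = 0.0462) while Osm, Epor and Ccnd3 did not. No BeadChip block could be fitted, as the files used here name no chip. Probes near background, those of Il6st, Il6ra, Csf2rb and Csf2rb2, have sizes that depend on the background correction.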
